A study of Mus musculus with 4 samples.

Results

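Cells from infarcted mouse hearts were searched for macrophages that still carried transcripts typical of the resident macrophages of the uninjured heart. A cell was taken when it held 500 to 40000 unique molecular identifiers (UMIs, 1 for each captured transcript) and over 200 genes, when at least 2 of the 4 genes Lyve1, Cd163, Retnla and Cbr2 had a UMI, and when C1qa, C1qb and C1qc together reached 30 per 10000 UMIs. This rule found 346, 133 and 383 cells in infarct replicates 1, 2 and 3, or 862 of 31295 infarct cells past the UMI and gene limits and of 41533 such cells in all 4 libraries. They are called rule cells here. They were set against the 3822 rule cells among 10238 baseline cells and against 24413 other C1q-positive cells of the same infarcts, which met the C1q threshold but had fewer than 2 of the 4 genes.

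All mice had the labelled genotype CSF1R-EGFP+ and were 12 to 16 weeks old. In this reporter the Csf1r promoter drives EGFP, so the sort for EGFP+ Ly6G- cells takes monocytes and macrophages and any other cell with Csf1r activity. The infarct group was 3 hearts, each its own library, 7 days after ligation of the left coronary artery, and the zone away from the infarct was cut off before digestion. The baseline group was a single library of 3 pooled hearts without surgery, so no test between infarct and baseline was possible, and the surgery and the part of the heart that was sampled cannot be told apart. Fewer cells of a kind and a lower mRNA level per cell were kept apart by counting cells and by giving levels as UMIs of a gene per 1000000 UMIs (CPM), summed over all cells of a group in a library, with mitochondrial genes left out.

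Resident cardiac macrophages are seeded largely before birth, renew themselves by local division and patrol the myocardium and its vessels, where they take up dying cells and debris. LYVE1, a hyaluronan receptor, CD163, the scavenger receptor for haemoglobin bound to haptoglobin, TIMD4, a receptor for phosphatidylserine, and FOLR2, a folate receptor, mark them in many tissues. After coronary occlusion most of them die in the ischaemic zone and monocytes from the blood replace them, first as inflammatory cells and later as reparative macrophages that express genes such as Spp1, Trem2 and Gpnmb. The genes of the rule lie on different chromosomes of GRCm38 (mm10), Lyve1 at chr7:110850607-110863239 and Cbr2 at chr11:120729489-120732114 on the minus strand and Cd163 at chr6:124304656-124330527 and Retnla at chr16:48842551-48844461 on the plus strand.

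The infarct libraries held 10144 to 10804 cells and 88157753 to 97944428 UMIs, and the baseline library held 10314 cells and 71093963 UMIs. Rule cells had a median of 9382.5, 8917 and 10081 UMIs in infarct replicates 1, 2 and 3, against 8620, 8549 and 8645 in the other C1q-positive cells and 7389.5 in baseline rule cells. Between 26 and 34 cell barcodes were shared by any pair of libraries, and 7 of the 862 infarct rule cells had a barcode found in another library. The share of cells with the highest doublet scores, a set as large as the expected doublet rate, was 11.3, 6.77 and 7.31% of rule cells and 9.26, 9.92 and 9.02% of the other C1q-positive cells. Infarct replicate 2 stood apart from the other two infarcts, with the fewest rule cells and the lowest level of Saa3 in rule cells and in the other C1q-positive cells.

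Rule cells were rare in the infarcts and common at baseline. They made up 3.33% (95% Clopper-Pearson interval 2.99 to 3.69), 1.23% (1.03 to 1.46) and 3.79% (3.42 to 4.18) of all cells in infarct replicates 1 to 3, which averaged 2.78% ± 1.36 (SD, n = 3), and 37.3% (36.4 to 38.3) of baseline cells. All 3 infarct shares lay far under the baseline interval, which like the other intervals covers counting error only. Of C1q-positive cells the shares were 3.48% ± 1.74 and 57.3%. Cells with at least 2000 UMIs were also thinned to 2000, which removes the difference in depth among them, and cells with fewer were left out. Of the cells kept, the shares were 1.41, 0.326 and 1.69% in the infarcts and 27.8% at baseline. Of cells below the C1q threshold, 24 of 2554, 1 of 1762 and 8 of 1704 had 2 of the 4 genes in infarct replicates 1, 2 and 3, and 327 of 3566 (9.17%) at baseline. B cells, which should lack these genes, were counted to gauge background, such as from free RNA, whose part was not tested. At least 2 of the genes had a UMI in 5 of 93 baseline B cells (5.38%, 1.77 to 12.1, median of 3390 UMIs) and in 0 of 79 infarct B cells (medians of 2864, 6902.5 and 3772 UMIs). By the rule of 3, that is 3 over the number of cells, 0 of 79 allows a share of up to 3.80%. This limit is not an exact interval like the others, and it lies above the mean infarct share of 2.78%.

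Infarct rule cells carried fewer of the 4 genes than baseline ones, and less of each. Exactly 2 genes were found in 255, 107 and 266 cells of infarct replicates 1, 2 and 3, 3 genes in 81, 24 and 108, and all 4 in 10, 2 and 9, whereas at baseline 1625 cells had 2, 1718 had 3 and 479 had 4. Cd163 with Cbr2 was the most frequent set in the infarcts (314 cells), ahead of Lyve1 with Cd163 and Cbr2 (173), Lyve1 with Cbr2 (162) and Retnla with Cbr2 (70). At baseline Lyve1 with Cd163 and Cbr2 led (1442 cells).

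The sets were unlike in genes that the rule did not use. Of 5 sets measured, the sum of 20 further resident genes was highest in cells with Lyve1, Cd163 and Cbr2, at 10179, 12106 and 9633 CPM in infarct replicates 1, 2 and 3. It was 6198, 7232 and 7106 CPM in cells with Cd163 and Cbr2 and 4685, 4540 and 4010 CPM in cells with Retnla and Cbr2. The cells with Retnla and Cbr2 had the most MHC class II of the 5 sets, 25895, 17296 and 18987 CPM over 10 genes, where the other C1q-positive cells had 23107 to 25648 CPM, although replicate 2 held only 4 of them. These values are a description, with no test. Cells with Lyve1, Cd163 and Cbr2 had 6939, 10919 and 4994 CPM.

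The levels of the genes that chose the cells are given as description. Lyve1 stood at 342, 226 and 501 CPM in rule cells of infarct replicates 1, 2 and 3 (356 ± 138) and at 933 CPM in baseline rule cells. Cd163 stood at 248, 272 and 273 CPM (264 ± 14) and 893. Cbr2, a carbonyl reductase, stood at 374, 364 and 355 CPM (364 ± 9.62) and 786. These 3 genes were lower in every infarct library than at baseline. So was Retnla, a secreted product of alternatively activated macrophages, which varied most between infarcts, at 571, 103 and 235 CPM against 791. The other C1q-positive cells had means of 1.53 CPM for Lyve1, 4.86 for Cd163, 10.3 for Retnla and 27.4 for Cbr2, and the 79 B cells of the infarct libraries had none of the first 3. The 93 baseline B cells had 23.2, 38.7, 436 and 12.9 CPM of Lyve1, Cd163, Retnla and Cbr2. Retnla was at 1152 CPM in baseline cells below the C1q threshold, above the level in baseline rule cells.

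**Figure D1:**
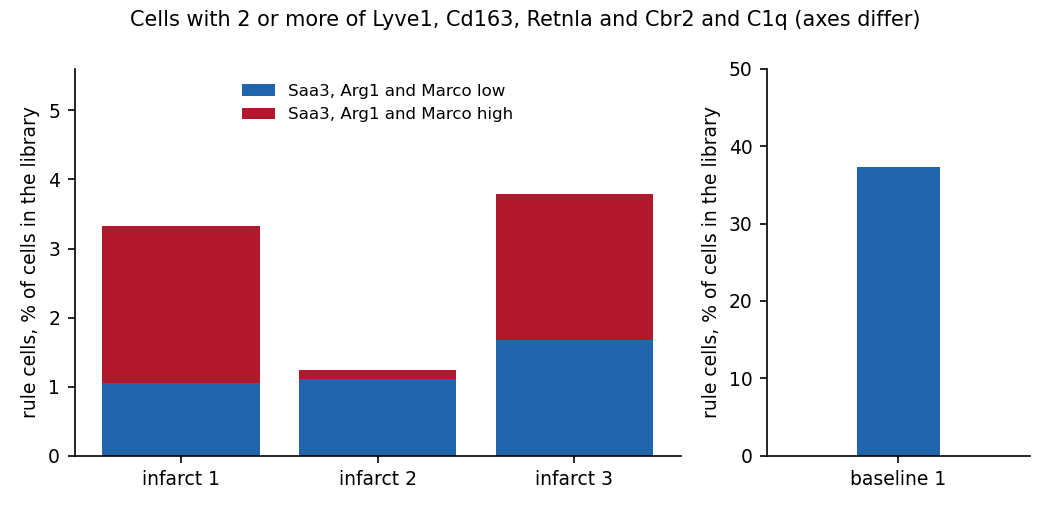
Rule cells as a percentage of all cells in each library, with the infarcts (left axis to about 5%) and baseline (right axis to 50%) on different scales; each bar is split into cells with Saa3, Arg1 and Marco together under (blue) or at and over (red) 10 per 10000 UMIs. The blue portion stands at 1.05, 1.10 and 1.67% in the infarcts and the red portion at 2.28, 0.130 and 2.12%, while the baseline bar of 37.3% has a single red cell.

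The rule gathered cells of unlike expression, and the data go partly against the label of remaining resident macrophages. Saa3 (an acute-phase protein), Arg1 (arginase, of wound macrophages) and Marco (a scavenger receptor) were nearly absent from baseline rule cells but abundant in many infarct rule cells. Split at 10 UMIs of the 3 genes per 10000, a threshold chosen after their values were seen, 237 of 346, 14 of 133 and 214 of 383 rule cells of infarct replicates 1, 2 and 3 lay at or above it (high rule cells, 465 in all) and 109, 119 and 169 below it (low rule cells, 397 in all). At baseline 1 of 3822 rule cells was high. The values formed a range, with 59 cells between 3 and 10, 106 between 10 and 30, 238 low cells at 0 and 180 cells at 100 or more.

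The frequency of high rule cells varied far more between infarcts than that of low ones. The low cells made up 1.05, 1.10 and 1.67% of all cells in infarct replicates 1, 2 and 3, and the high cells 2.28, 0.130 and 2.12%. Rule cells were 20.5, 12.0 and 25.1% of all C1q-positive cells that were high and 1.63, 1.34 and 2.24% of those that were low. Median UMIs were 9799, 8738 and 9064 in low and 9214, 12153 and 11355.5 in high rule cells. As a description, since the rule used these genes, C1q transcripts were at a median of 141, 198 and 163 per 10000 UMIs in low and 91.6, 81.5 and 84.4 in high rule cells. Lyve1 was found in 55.7, 71.4 and 76.6% of the high cells and 35.8, 34.5 and 41.4% of the low cells.

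**Figure D2:**
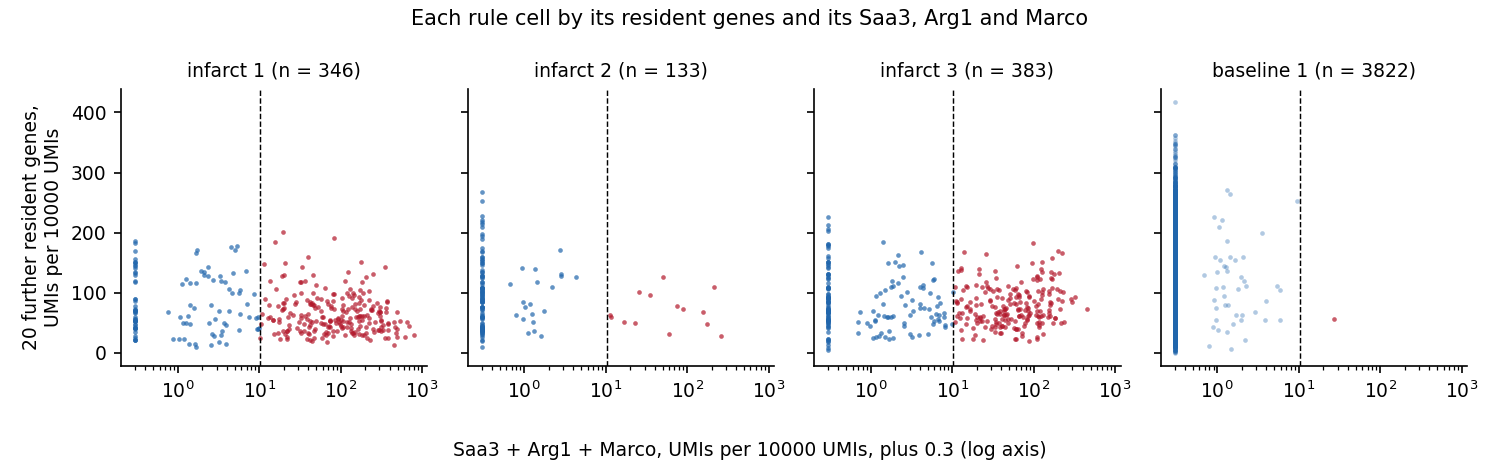
Each rule cell of the 3 infarct libraries and of baseline, by Saa3, Arg1 and Marco together (x, UMIs per 10000 plus 0.3, log axis) and by 20 further resident genes (y, UMIs per 10000); the dashed line marks 10 and separates low (blue) from high (red) cells. The median of the y axis is 69.0, 89.8 and 75.4 in low and 58.2, 65.5 and 73.3 in high cells of infarct replicates 1, 2 and 3, and the columns at the left edge hold cells with no UMI of the 3 genes.

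As a sum, further genes of the resident programme lay well above the other infarct macrophages in low and in high rule cells. Single genes of the programme did not all do so in high cells, as given below for Mrc1. The sum of 20 such genes was 6916, 8786 and 7945 CPM in rule cells of infarct replicates 1, 2 and 3, 2512, 2644 and 2645 CPM in the other C1q-positive cells, and 14085 CPM in baseline rule cells. Split by Saa3, Arg1 and Marco, the sum was 8313 ± 652 CPM in low and 7167 ± 623 CPM in high rule cells (SD, n = 3). Of the other C1q-positive infarct cells 93.2% were low, and no sum is given for their high cells apart. Since the cells were picked by resident genes, higher levels of related genes are part of that choice. This and the other gene lists were chosen with earlier results of these data known, so counts over them are description and not independent support. With sums per library tested by edgeR with the library as a block, 17 of the 18 measured genes of the list were higher (adjusted p under 0.01 over all 12844 genes tested) and none lower, where 5.15% of all genes were higher and 4.13% lower (9.27% in either direction). The median log2 fold change of the list was 1.52, against -0.01 for all genes, and Stab1, a scavenger receptor, was the gene that did not pass (0.47 ± 0.14 SE, adjusted p = 0.031).

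Folr2, the folate receptor, was at 442, 518 and 453 CPM in rule cells and 51.0, 49.2 and 50.7 CPM in the other C1q-positive cells (log2 fold change 3.08 ± 0.11 SE, adjusted p = 2.3e-08). The levels in the 3 infarcts were alike and lay far from the comparator. F13a1, the A subunit of coagulation factor XIII, was at 710, 909 and 689 CPM against 142, 95.6 and 114 (2.57 ± 0.15, 4.3e-07). Vsig4, a complement receptor of resident macrophages, had the largest fold change of the genes ranked, with 39.1, 66.3 and 102 CPM against 1.69, 0.720 and 1.53 (5.53 ± 0.29, 1.7e-07). Timd4 was at 7.95, 29.1 and 30.2 CPM against 0.446, 0.283 and 1.41 (4.83 ± 0.41, 9.4e-06), a low level that varied between infarcts. In cells thinned to 2000 UMIs, Folr2 had a UMI in 51.1% ± 1.71 of rule cells, 7.11% of the other C1q-positive cells and 55.3% of baseline rule cells.

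Several resident genes were unequal between low and high rule cells. Mrc1, the mannose receptor, was at 777, 1377 and 831 CPM in all rule cells and at 445, 500 and 512 CPM in the other cells (0.84 ± 0.13, 0.001), with 1315, 1500 and 1315 CPM in low and 511, 499 and 522 CPM in high rule cells, so that the high cells stood at the level of the comparator. Gas6, the bridging ligand of TAM receptors, was at 174, 418 and 197 CPM against 85.9, 113 and 99.7 (1.15 ± 0.15, 0.00024), with 283, 459 and 316 CPM in low and 120, 125 and 121 in high rule cells. Both genes were higher in the low than in the high cells of each infarct. Fcna, a lectin that activates complement, ran the other way. It was at 418, 56.8 and 374 CPM against 29.1, 4.43 and 15.8 (3.94 ± 0.17, 5.1e-08), with 126, 24.9 and 149 CPM in low and 563, 285 and 518 CPM in high rule cells. Ltc4s, leukotriene C4 synthase, was at 1004, 343 and 1051 CPM against 144, 40.9 and 89.3 (3.00 ± 0.14, 9.7e-08), and Alox5, the 5-lipoxygenase that starts the same pathway, was at 51.8, 53.2 and 70.4 CPM against 8.4, 5.56 and 9.83 (2.73 ± 0.14, 1.7e-07). Ccl24, an eosinophil chemokine, was at 201, 99.8 and 171 CPM against 29.4, 11.8 and 23.9 (2.74 ± 0.11, 3.0e-08). The libraries of the 2 groups did not overlap for any of these genes, a pattern that 33.8% of all 12844 genes tested showed in either direction.

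Smaller differences in the same direction were measured for Pf4, platelet factor 4 (1.20 ± 0.11, 1.9e-05), and for Siglec1, a sialic acid receptor (0.84 ± 0.13, 0.001). Siglec1 no longer passed with Saa3, Arg1 and Marco low in both groups (adjusted p = 0.011). Stab1 passed in that comparison, at 650, 729 and 643 CPM against 327, 328 and 325 (0.89 ± 0.07, 1.5e-05). The remaining genes ranked highest were Ednrb, the endothelin receptor type B (3.32 ± 0.15, 7.1e-08), Padi4, a peptidylarginine deiminase (3.22 ± 0.15, 7.2e-08), and the unnamed gene model Gm16104 (3.49 ± 0.16, 7.1e-08). Ednrb was at 319, 103 and 289 CPM in rule cells and Padi4 at 129, 8.01 and 111 CPM. Both were lowest in infarct replicate 2, as were Fcna and Ltc4s.

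**Figure D3:**
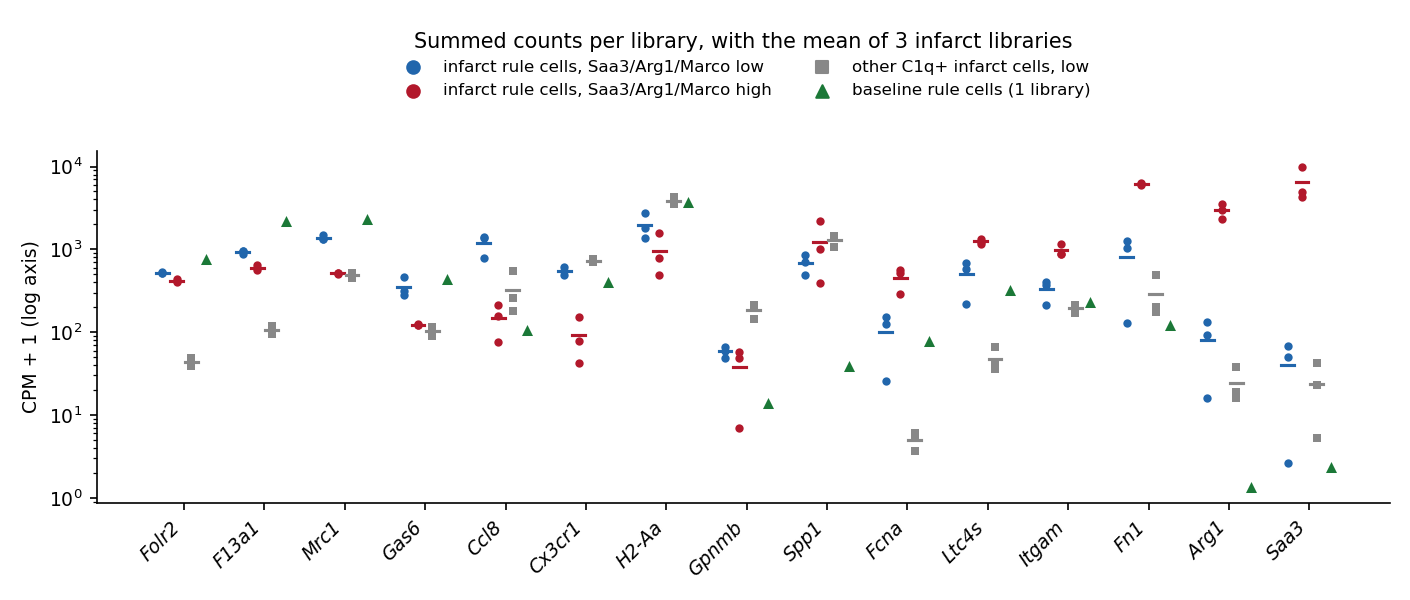
Levels of 15 genes (CPM plus 1, log axis; 1 symbol per library, bars at the mean of 3 infarcts) in low (blue) and high (red) infarct rule cells, in the other C1q-positive infarct cells that were low (grey) and in baseline rule cells (green). Folr2 and F13a1 lie near each other in low and high rule cells and far above the grey squares, Mrc1, Ccl8 and Cx3cr1 are higher in the blue than the red symbols, and Fcna, Itgam, Fn1, Arg1 and Saa3 the reverse.

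Genes of early infarct and wound macrophages were higher in rule cells as a whole. Of 14 genes on that list 9 were higher and none lower, where 5.15% of all genes were higher and 4.13% lower. The median log2 fold change of the list was 1.39. The list holds Saa3, Arg1 and Marco, so its place in the high cells was in large part fixed by the split. Saa3 was at 6711, 607 and 2663 CPM in rule cells and 1225, 54.4 and 426 CPM in the other C1q-positive cells (2.70 ± 0.16, 5.5e-07). Arg1 was at 2051, 449 and 1471 CPM against 332, 55.6 and 196 (2.70 ± 0.11, 5.1e-08), and Marco at 153, 75 and 304 CPM against 14, 13.5 and 48.2 (2.75 ± 0.17, 7.0e-07). These levels were several times apart between infarcts in both groups, with replicate 2 the lowest. Fn1, fibronectin, was at 4602, 876 and 4057 CPM against 1171, 257 and 617 (2.01 ± 0.16, 5.8e-06), and in high rule cells at 6252, 6219 and 5984 CPM, close to the 7330, 6677 and 5944 CPM of the other high cells. With Saa3, Arg1 and Marco low in both groups, Fn1 did not pass (1.10 ± 0.35, adjusted p = 0.076), and 1 of 11 measured genes of the list was higher, where 3.0% of the 12583 genes tested were higher, 3.07% lower and 6.06% either. Without the library as a block Saa3, Arg1, Marco and Fn1 also did not pass. Itgam, the CD11b integrin chain, was at 724, 294 and 858 CPM against 291, 182 and 272 (1.09 ± 0.16, 0.00052).

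Among high cells, markers of serous cavity macrophages were measured because those cells can attach to the heart from the pericardium. Their 7 genes summed to 160, 71.3 and 195 CPM in high rule cells, 14.6 CPM ± 3.6 in low rule cells and 392 CPM ± 115 in the other high cells. Of all genes tested in all rule cells against the other C1q-positive cells, 5.15% were higher and 4.13% lower. Of the 7 markers 3 were higher and none lower (median log2 fold change 1.19), Naip1 (2.35 ± 0.31, 0.00027), Icam2 (1.21 ± 0.26, 0.0059) and Prg4 (1.19 ± 0.19, 0.0009). None of the 3 passed without replicate 3 (adjusted p = 0.016, 0.28 and 0.058), without the library block, or with Saa3, Arg1 and Marco low, where Icam2 and Prg4 were at -0.17 and -0.09. Gata6, the transcription factor that defines large cavity macrophages, was at 3.08, 0 and 4.98 CPM in high rule cells. The part of such cells in the result was not tested.

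Transcripts of MHC class II antigen presentation genes were lower in rule cells. Of 10 measured genes of the MHC class II list 8 were lower and none higher, where 4.13% of all genes were lower and 5.15% higher. The median log2 fold change of the list was -1.06. H2-Aa, the alpha chain of I-A, was at 1971, 1651 and 1021 CPM against 4096, 3557 and 3333 (-1.43 ± 0.13, 1.8e-05). H2-Eb1, the beta chain of I-E, was at 1309, 1282 and 792 CPM against 3273, 3044 and 2822 (-1.61 ± 0.13, 5.4e-06). Cd74, the invariant chain, was at 4870, 4108 and 2694 CPM against 9798, 8647 and 8910 (-1.41 ± 0.14, 2.6e-05). The libraries of the groups did not overlap for these 3 genes, a pattern that 33.8% of all genes tested showed in either direction. The list summed to 13167 ± 3377 CPM in low and 7581 ± 3146 CPM in high rule cells, 24739 ± 1724 CPM in the other low cells and 22902 CPM in low baseline rule cells. B-cell and dendritic-cell markers, which could carry MHC class II, summed to 17.5 to 25 and 10.9 to 11.8 CPM in rule cells and to 40.8 to 61.1 and 13.3 to 20.7 CPM in the others, and their part was not tested.

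The reparative programme of infarct macrophages was lower in rule cells than in their neighbours, although it was present. Of 18 genes 12 were lower and none higher (median log2 fold change -0.97), where 5.15% of all genes were higher and 4.13% lower. The list was chosen with earlier results of these data known, so the count is description. Gpnmb, a glycoprotein of lysosome-rich macrophages, was at 59.4, 43.0 and 52.4 CPM against 185, 142 and 202 (-1.92 ± 0.12, 5.5e-07), a gap seen in each infarct. Fabp5, a fatty acid chaperone, was at 337, 220 and 275 CPM against 627, 648 and 601 (-1.33 ± 0.14, 3.7e-05). Lgals3, galectin 3, was at 1036, 764 and 916 CPM against 1706, 1757 and 1733 (-1.09 ± 0.12, 6.7e-05), and Trem2, a lipid receptor, at 520, 800 and 631 CPM against 900, 1066 and 1008 (-0.77 ± 0.11, 0.00034). Spp1, osteopontin, was at 845, 1018 and 517 CPM against 1436, 1444 and 1042 (-0.91 ± 0.11, 0.00018). The result depended on the comparator. When other cells with a Gpnmb UMI were left out of it, 6 of the 18 genes were lower and 1 higher (median -0.41), and 4 lower and 2 higher (median -0.16) with Saa3, Arg1 and Marco low, against 12 lower and none higher (median -0.78) with all other low cells. Spp1 and Fabp5 then changed sign, to 0.238 and 0.306 on the log2 scale. Gpnmb is itself on the list, and rule cells with a Gpnmb UMI were kept, so its own higher value was fixed by this choice. Acp5, tartrate-resistant acid phosphatase, was at 28.6, 45.1 and 27.1 CPM against 90.9, 97.8 and 97.5 (-1.72 ± 0.14, 5.5e-06). In thinned cells Gpnmb had a UMI in 5.96% ± 2.56 of rule cells and 13.8% ± 1.66 of the others.

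The further genes ranked lowest were led by Ccl5, a chemokine that attracts T cells, at 15.3, 20.4 and 13.1 CPM against 79.5, 80.9 and 73.9 (-2.47 ± 0.14, 2.5e-07), and Il7r, the interleukin 7 receptor, at 9.71, 10.2 and 14.3 CPM against 44.9, 51.2 and 54.6 (-2.24 ± 0.15, 9.9e-07). Cd72, an inhibitory C-type lectin, was at 132, 332 and 140 CPM against 583, 773 and 626 (-1.99 ± 0.16, 5.9e-06). It was higher in infarct replicate 2 than in the other infarcts, but under each of the comparator's libraries. Slamf7 (-2.05 ± 0.17, 8.8e-06), F11r (-1.81 ± 0.14, 3.9e-06), Sema4d (-1.79 ± 0.15, 9.4e-06) and Tmem119 (-1.79 ± 0.17, 2.0e-05) were lower by similar amounts. Itgax, the CD11c integrin chain, was at 8.54, 8.74 and 10.5 CPM against 37.6, 34.3 and 34.8 (-2.06 ± 0.16, 4.9e-06). Itga5, the α5 chain of the fibronectin receptor, was at 44.1, 39.3 and 40.4 CPM against 50.4, 43.5 and 43.3 and did not pass (-0.28 ± 0.11, adjusted p = 0.11).

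Interferon-induced genes were lower in rule cells, 7 of 12 with none higher (median -0.88), where 4.13% of all genes were lower and 5.15% higher. Isg15, a ubiquitin-like protein, was at 53.9, 93.2 and 44.2 CPM against 116, 171 and 107 (-1.24 ± 0.11, 1.2e-05), and Ifit3 at 17.9, 75.7 and 18.0 CPM against 64.1, 110 and 75.3 (-1.60 ± 0.22, 0.00033). Infarct replicate 2 was the highest for both, and for Ifit3 its rule cells lay above 2 of the 3 libraries of the comparator. Cxcl10, an interferon-induced chemokine, was at 23.8, 142 and 13.8 CPM against 111, 152 and 112 (-1.79 ± 0.37, 0.0052). The call for Cxcl10 was lost without replicate 3 (adjusted p = 0.063) and with Saa3, Arg1 and Marco low in both groups (0.053).

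Chemokines moved in both directions, 7 of 15 higher and 4 lower, where 5.15% of all genes were higher and 4.13% lower. Ccl8, a chemokine of resident macrophages in several tissues, was at 593, 1240 and 348 CPM against 236, 534 and 173 (1.04 ± 0.11, 4.4e-05), with 1367, 1392 and 777 CPM in low and 211, 154 and 74.3 CPM in high rule cells. Every infarct had more of it in the low than in the high cells. Ccl6 (2.51 ± 0.16, 9.1e-07) and Ccl9 (1.71 ± 0.14, 5.6e-06), CC chemokines of the myeloid lineage, were at 4738, 1616 and 4704 CPM and at 1559, 529 and 1081 CPM in rule cells, with Ccl6 at 5411, 8535 and 6216 CPM in the high cells. Ccl7, a monocyte chemoattractant, was at 221, 272 and 253 CPM against 112, 131 and 77.3 (1.11 ± 0.14, 0.00017). Ccl3 (-0.94 ± 0.14, 0.00078) and Ccl4 (-1.15 ± 0.14, 0.00016), inflammatory chemokines, were lower, and Ccl3 did not pass without replicate 3 (adjusted p = 0.017). Il1b, interleukin 1 beta, was at 200, 328 and 162 CPM against 616, 704 and 549 (-1.64 ± 0.13, 5.1e-06).

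Receptors of the monocyte lineage were lower in rule cells. Ccr2, the receptor for monocyte chemoattractants, was at 536, 198 and 243 CPM against 637, 411 and 458 (-0.87 ± 0.15, 0.0017), so that replicate 1 had over 2 times the level of replicate 2. It did not pass without replicate 3 (adjusted p = 0.031) or with Saa3, Arg1 and Marco low (0.019). Cx3cr1, the fractalkine receptor, was at 263, 538 and 264 CPM against 669, 699 and 725 (-1.21 ± 0.17, 0.00038), with 491, 607 and 554 CPM in low and 151, 41.6 and 78.1 CPM in high rule cells. In each infarct the low cells lay nearer the comparator than the high cells.

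Genes of uptake, complement and growth factors moved in both directions. For the counts in this paragraph, 5.15% of all genes tested were higher and 4.13% lower. Of 13 efferocytosis genes 4 were higher, Timd4, Cd36, Gas6 and Pros1, which like Gas6 bridges dying cells to their receptors (0.94 ± 0.11, 9.6e-05), and 2 lower, Itgb5, an integrin chain (-1.01 ± 0.12, 9.3e-05), and Axl, a receptor for Gas6 (-0.69 ± 0.10, 0.00067). Of 15 complement and Fc receptor genes 4 were higher, Vsig4, C4b, Fcgrt, the neonatal Fc receptor (1.16 ± 0.11, 1.8e-05), and Cfp, properdin (1.14 ± 0.14, 0.00018), and 2 lower, the activating Fc receptors Fcgr1 (-0.81 ± 0.12, 0.00047) and Fcgr4 (-0.81 ± 0.13, 0.0012). Of 14 growth factors 1 was higher, Pdgfc (0.94 ± 0.14, 0.00055), and 5 lower, Hgf (-1.19 ± 0.23, 0.0031), Gdf15 (-1.19 ± 0.17, 0.0005), Pdgfb (-0.85 ± 0.11, 0.00027), Tgfbi (-0.74 ± 0.10, 0.00032) and Pdgfa (-0.66 ± 0.11, 0.0016). Axl, Fcgr1, Fcgr4, Hgf, Gdf15 and Pdgfa did not pass without replicate 3 (adjusted p = 0.019, 0.011, 0.027, 0.069, 0.016 and 0.044). C4b, complement component 4, was at 469, 288 and 343 CPM against 100, 62.0 and 78.0 (2.05 ± 0.10, 1.6e-07). Cd36, a scavenger and fatty acid receptor, was at 265, 143 and 263 CPM against 73.9, 38.4 and 62.8 (1.80 ± 0.10, 3.6e-07). Clec10a, a galactose-binding lectin of alternatively activated macrophages, was at 64.2, 71.4 and 52.6 CPM against 28.6, 18.0 and 21.0 (1.31 ± 0.14, 5.9e-05). Of 18 macrophage transcription factors 4 were higher, among them Klf2 at 904, 646 and 715 CPM against 350, 295 and 237 (1.22 ± 0.12, 2.3e-05) and Maf at 721, 962 and 591 CPM against 440, 472 and 414 (0.61 ± 0.11, 0.0029), and 1 was lower. Maf did not pass without replicate 1 (adjusted p = 0.016).

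**Figure D4:**
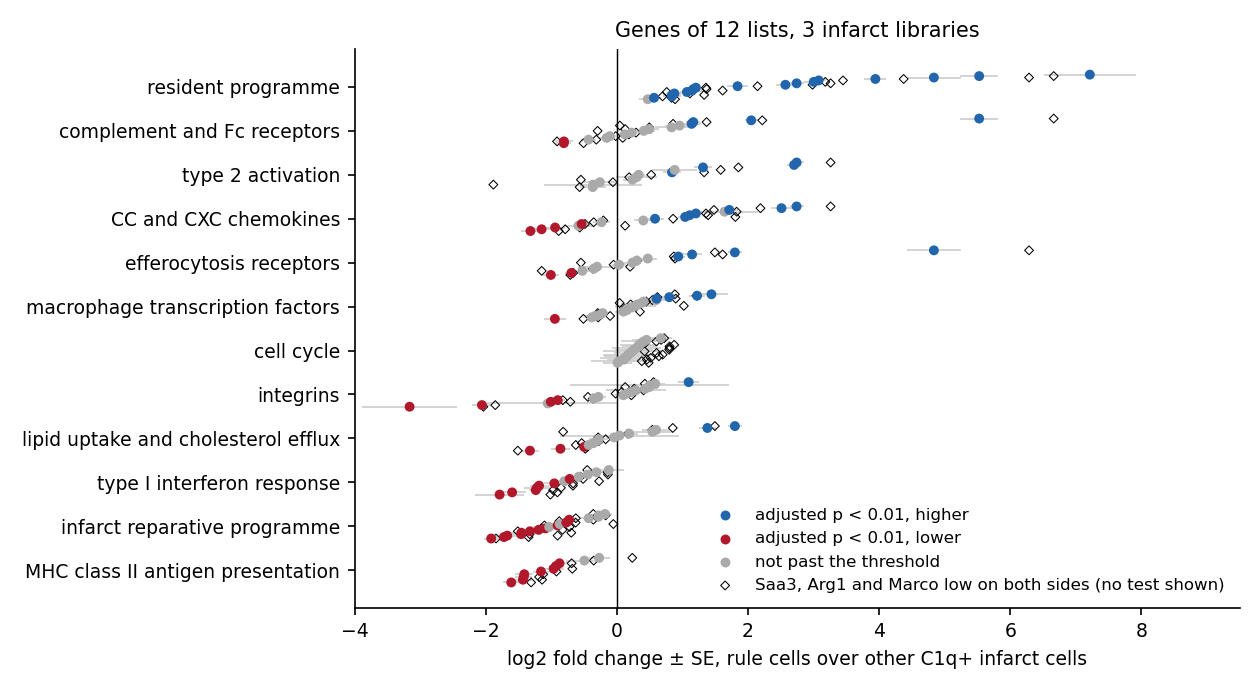
Log2 fold change ± SE of the genes of 12 lists, rule cells over other C1q-positive cells in 3 infarct libraries (points; blue higher and red lower at adjusted p under 0.01, grey not past it), with the same fold change when Saa3, Arg1 and Marco were low on both sides (open diamonds). All but 1 point of the resident programme are blue, and no point of the MHC class II, reparative or interferon lists is.

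Cell cycle genes did not differ by the test, and a single infarct stood out. Of 16 such genes 0 passed in edgeR, 2 had an unadjusted p under 0.05 and 0 passed in DESeq2, and their median log2 fold change was 0.25. The list rested on single libraries: with Saa3, Arg1 and Marco low on both sides 0 of 16 passed (median 0.62), but 12 were higher without replicate 2 (median 0.98) and 0 without replicate 3 (median -0.04). At least 2 of Mki67, Top2a, Birc5, Cdk1 and Nusap1 had a UMI in 15 of 346 (4.34%), 10 of 133 (7.52%) and 72 of 383 (18.8%) rule cells of infarct replicates 1, 2 and 3, against 3.68, 4.47 and 4.97% of the other C1q-positive cells and 3.72% of baseline rule cells. Replicate 3 alone lay far above its comparator, in low cells (25 of 169) and high cells (47 of 214). In cells thinned to 2000 UMIs the shares were 2.06, 2.27 and 7.98% against 1.88, 2.00 and 2.28%.

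Against baseline rule cells, those of the infarct had less of the resident programme and more of genes that the infarct macrophages express. A gene was counted when its log2 ratio reached 1 and all 3 infarct libraries lay outside the 95% Poisson interval of the baseline count. Of 3259 genes 101 (3.1%) were higher and 147 (4.51%) lower by this rule (7.61% in either direction), with no test. With Saa3, Arg1 and Marco low on both sides the counts were 36 (1.12%) and 97 (3.02%) of 3217 (4.13% either). These shares stand beside every list count against baseline that follows. The genes ranked highest were Saa3 (log2 ratio 11.29), Cd5l (8.95), Arg1 (8.61), Marco (7.39), Prtn3 (6.47), Fn1 (4.70), Spp1 (4.28), Clec4d (3.84), Thbs1 (3.67) and Slpi (3.54). Saa3, Arg1 and Marco chose the low cells and were not counted when low cells were compared. Of the others, Fn1, Spp1 and Thbs1 met the same limits there.

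Of 16 measured resident genes 6 were lower and 1 higher in infarct rule cells, with a median log2 ratio of -0.76 against -0.01 for all genes. F13a1 was at 710, 909 and 689 CPM in the infarcts and 2204 CPM (95% Poisson interval 2187 to 2221) at baseline, a log2 ratio of -1.52. Timd4 was at 7.95, 29.1 and 30.2 CPM and 116 (112 to 120), a ratio of -2.38. Every infarct library lay under the baseline interval for both genes. Folr2 was at 442, 518 and 453 CPM and 754 (745 to 765), a ratio of -0.68 that did not reach the fold, and Mrc1 at 777, 1377 and 831 CPM and 2333 (2316 to 2351), a ratio of -1.23 that shrank to -0.76 in low cells. The gene that was higher was Ltc4s, at 1004, 343 and 1051 CPM and 318 (312 to 325). In low cells 4 resident genes were lower and none higher, with Ltc4s at 691, 218 and 582 CPM, on both sides of the baseline value.

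Genes of type 2 activation differed in both directions. Of 6 measured 3 were lower, Mgl2, Mrc1 and Ccl24, and Arg1 was higher (median log2 ratio -0.88). In low cells 2 of 5 were lower, Mgl2 and Ccl24, and Il4ra, a chain of the interleukin 4 receptor, was higher (1.16). Mgl2, a galactose-binding lectin, was at 31.8, 145 and 52.1 CPM and 886 at baseline (log2 ratio -3.54), and Ccl24 at 201, 99.8 and 171 CPM and 316 (-1.01). Colec12, a scavenger receptor with a collagen-like stalk that is not on the list, was at 10.0, 41.5 and 15.2 CPM and 137 (-2.62). These stayed apart from baseline in low cells, with ratios of -3.04, -2.34 and -2.16. Cyr61, a matricellular protein (-3.15), St3gal6, a sialyltransferase (-2.50), Cmah, which makes a form of sialic acid (-2.47), Chp2, a calcineurin-like protein (-2.42), and Hist1h1e, a linker histone (-2.31), were also among the 10 ranked lowest.

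Heat-shock and immediate-early genes were lower in the infarct rule cells, 6 of 14 with none higher (median log2 ratio -0.78), and 3 of 14, Hspa1a, Hspa1b and Jun, when low cells were compared. Hspa1a, an inducible HSP70, was at 79.8, 154 and 18.7 CPM and 527 at baseline (-2.65), Hspa1b, its near-identical neighbour, at 87.1, 104 and 13.6 CPM and 389 (-2.51), and Jun at 525, 1274 and 559 CPM and 2144 (-1.45). Reads of Hspa1a and Hspa1b may be shared between the copies. These genes respond to warm digestion of tissue, the infarct and baseline libraries were digested separately, and the part of that step was not tested.

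Reparative genes were higher in infarct rule cells than at baseline, 6 of 11 measured with none lower (median log2 ratio 1.29), and also in low cells, 8 of 13. Spp1 was at 845, 1018 and 517 CPM and 40.9 CPM (38.6 to 43.3) at baseline, a log2 ratio of 4.28 in all and 4.15 in low cells. Ctsd, the lysosomal protease cathepsin D, was at 3092, 2418 and 2781 CPM and 441 (2.65 and 2.47). Fabp5 was at 337, 220 and 275 CPM and 55.3 (2.33 and 2.18). Thus rule cells lay between baseline rule cells and the other infarct macrophages for Spp1 and Fabp5, and near the latter for Ctsd. Low rule cells had less Ctsd than the other low cells (log2 fold change -0.36 ± 0.06, adjusted p = 0.0025 in edgeR). That call was lost without the library block and without replicate 3. Trem2 (1.42) and Lgals3 (1.31) were in the same position as Spp1. Ccl8 was above baseline rule cells and the other infarct macrophages, at 593, 1240 and 348 CPM in infarct and 105 (102 to 109) in baseline rule cells (2.79). So was C4b, at 469, 288 and 343 CPM against 106 (1.79). Irf7, an interferon regulatory factor, had a ratio of 1.74.

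Of 9 measured MHC class II genes 6 were lower in infarct rule cells (median -1.25), and 2 of 9 when low cells were compared. H2-Eb1 was at 1309, 1282 and 792 CPM and 3350 at baseline (-1.57), with -1.20 in low cells. Cd74 was at 4870, 4108 and 2694 CPM and 9793 (-1.33), with -0.98 in low cells, which did not reach the fold.

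**Figure D5:**
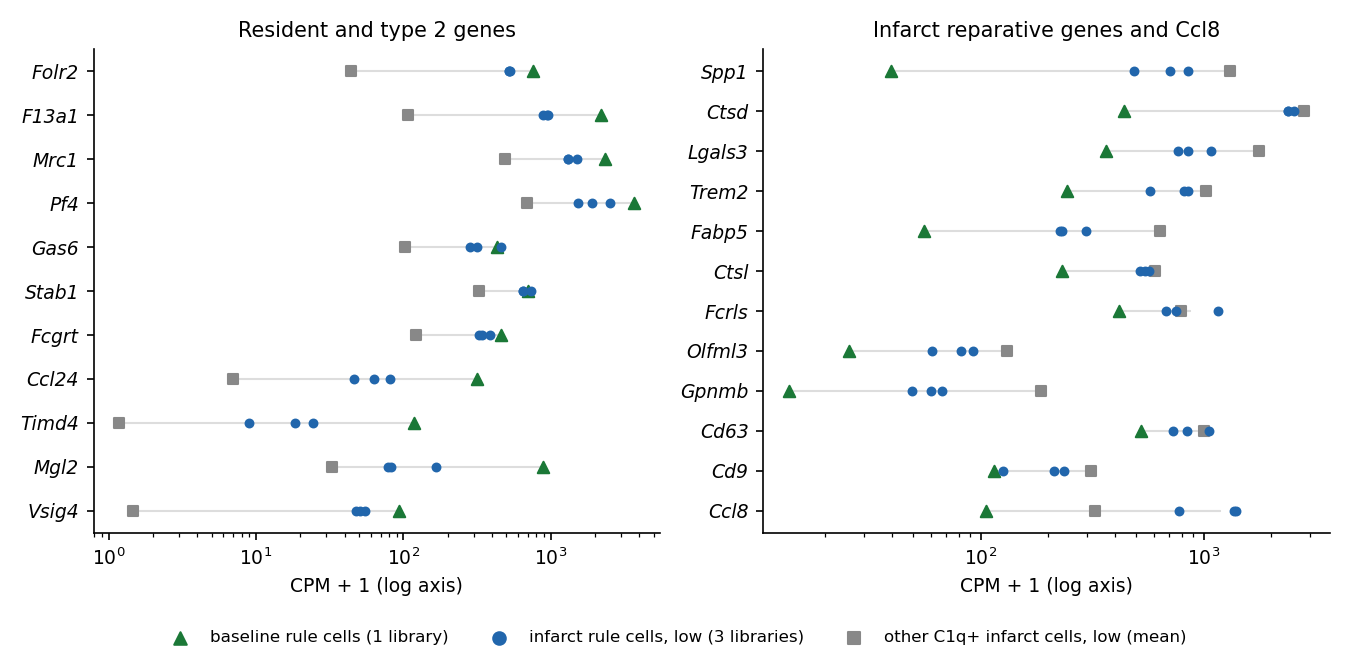
Resident and type 2 genes (left) and reparative genes with Ccl8 (right), CPM plus 1 on a log axis, in baseline rule cells (green triangle, 1 library), low infarct rule cells (blue, 3 libraries) and the other low C1q-positive infarct cells (grey square, mean). Most blue points lie between the triangle and the square, near the triangle for Folr2, Stab1 and Gas6 and near the square for Ctsd, while Ccl8 is highest in the blue points.

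Within the infarct rule cells, those with 3 or 4 of the genes were set against those with 2. There were 91, 26 and 117 cells on the first side in infarct replicates 1, 2 and 3 and 255, 107 and 266 on the second, with medians of 10659, 8148.5 and 11846 against 9116, 9056 and 9074.5 UMIs. The split uses the same genes as the rule, so resident genes that go with them are part of the choice and are given without p. A comparison at equal depth was not run, because thinning left fewer than 20 cells in a library. Of 8489 genes 19 were higher (0.224%) and 32 lower (0.377%; 0.601% either), and 6 of 18 resident genes were higher with none lower (median log2 fold change 0.46). Vsig4 was at 76.5, 195 and 167 CPM against 24, 36.7 and 67.7 (1.60 ± 0.17), Folr2 at 677, 1038 and 547 CPM against 346, 399 and 402 (0.88 ± 0.13), and F13a1 at 972, 1498 and 847 CPM against 603, 773 and 603 (0.68 ± 0.09). Fcna (0.96 ± 0.13), Ltc4s (0.64 ± 0.10) and Pf4 (0.56 ± 0.07) completed the 6. Fgfr1, a fibroblast growth factor receptor, was at 98.9, 54.6 and 99.4 CPM against 36.8, 20.6 and 41.4 (1.32 ± 0.15, 0.00055). Fxyd2, Slc9a3r2, Gm16104, Ednrb and Cd36 were the other genes ranked highest, between 0.71 and 1.06.

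On the lower side Il1b was at 71.4, 78.0 and 98.0 CPM in cells with 3 or 4 genes and 253, 385 and 197 in those with 2 (-1.54 ± 0.17, 0.00055). Ms4a7, a membrane protein of monocyte-derived macrophages, was at 336, 1584 and 364 CPM against 624, 2029 and 908 (-0.88 ± 0.13, 0.0033). Both were lower in each of the 3 infarcts. Hist1h1b (-1.67 ± 0.29, 0.0077), Gdf15, a stress cytokine (-1.63 ± 0.26, 0.0052), Col14a1 (-1.33 ± 0.19, 0.0023), Ly6a (-1.33 ± 0.18, 0.0022), Nr4a2 (-1.18 ± 0.20, 0.0077), Hist1h1e (-1.16 ± 0.20, 0.0077), Itga6 (-0.92 ± 0.12, 0.0022) and Cxcr4 (-0.90 ± 0.12, 0.0022) made up the rest of the genes ranked lowest. Col14a1 is a collagen gene, and fibroblast markers moved with this side. Of 5 measured 2 were lower, Postn (-4.91 ± 0.70, 0.0024) and Col3a1 (-2.69 ± 0.45, 0.0064), with a list median of -2.14 and all 5 at an unadjusted p under 0.05. The 8 fibroblast genes summed to 43.8, 46.8 and 42.7 CPM in cells with 3 or 4 genes and 41.4, 65.3 and 413 CPM in those with 2, so that replicate 3 alone stood apart. Without replicate 3 none of 3 measured passed (median 0.01). The cardiomyocyte genes had 0 of 4 called and 4 at an unadjusted p under 0.05. The part of these cells was not tested. This comparison depended on single libraries: 4 genes were called without replicate 1, 170 without replicate 2 and 1 without replicate 3, and without the library block edgeR called 0 genes (301 at an unadjusted p under 0.05, 30 called by DESeq2 with the block). Among low cells 33 of 6582 genes were higher (0.501%) and 23 lower (0.349%; 0.851% either).

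The edges of the rule were graded. Among C1q-positive infarct cells with exactly 1 of the 4 genes, just outside the rule, Folr2 stood at 130, 119 and 122 CPM, and among those with 2, just inside, at 346, 399 and 402 CPM. F13a1 stood at 287, 219 and 245 CPM outside and 603, 773 and 603 CPM inside. At the C1q threshold 7, 1 and 5 rule cells lay between 30 and 36 per 10000 UMIs, and 4, 0 and 3 cells that met the rest of the rule lay between 24 and 30.

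Markers of other cells were low in rule cells and uneven between infarcts. Fibroblast genes (8) summed to 42.1, 61.9 and 283 CPM in rule cells of infarct replicates 1, 2 and 3 and 57.5 to 86.1 CPM in the other C1q-positive cells, blood endothelial genes (7) to 101, 11.7 and 41.1 against 29.9 to 38.0 CPM, and cardiomyocyte genes (7) to 14.4, 67.0 and 90.9 against 36.6 to 60.8 CPM. Granulocyte genes summed to 43.0 to 79.5 CPM, T and NK cell genes, with 5 of 7 at 0, to 0.6 to 1.9 CPM, and erythroid genes to 0 to 0.9 CPM. Lymphatic endothelial genes, measured because Lyve1 also marks those vessels, summed to 8.2, 21.8 and 10.3 CPM, with 2 of 5 at 0, against 8.2 to 11.5 CPM. Of the fibroblast, granulocyte and blood endothelial genes 0 passed in edgeR or DESeq2, with 0, 0 and 3 at an unadjusted p under 0.05, but 5 of 7 fibroblast genes were higher without replicate 1 (median 1.27). Of the cardiomyocyte genes Tnnt2, a troponin, was lower (-1.37 ± 0.23, 0.0014), though not without replicate 3 (adjusted p = 0.026) or with Saa3, Arg1 and Marco low (0.27), where Mb, myoglobin, was higher (1.75 ± 0.33, 0.005). The part of these cells in the results was not tested.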

How the data were processed

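The members and gene lists were chosen with earlier results of these data known. Per the file headers and labels, the authors aligned 10x 3' v3.1 libraries to mm10 with Cell Ranger (3.0.1 in the processing notes, 3.1.0 in the matrix headers) and deposited raw UMI counts for 31053 genes. Cells of the authors' filter (500 to 40000 UMIs, over 200 genes) were kept. Counts of rule cells, and of other C1q-positive cells, were summed per library without 13 mitochondrial genes, normalised by TMM, filtered by filterByExpr and tested with the edgeR 4.0.16 quasi-likelihood F test (R 4.3.3), 2-sided, with the library as a block because both sums come from 1 heart. p-values were Benjamini-Hochberg adjusted over all genes tested, with a threshold of 0.01, and the 7 genes of the rule were not tested. On simulated counts for 12941 genes the test recovered 86% of 2-fold, 100% of 3-fold and 72% of 0.5-fold changes. The simulation gave all genes the same spread and both sums of a library the same library effect. It therefore does not show the recovery where a difference varies between infarcts. ± is the SD over 3 libraries or, after a log2 fold change, its SE, and values in parentheses after a fold change are the SE and adjusted p. Baseline is 1 library, so exact Poisson intervals (95%) of its summed counts were given in place of a test. Genes named are the 10 highest and 10 lowest by fold past the threshold with a mean of at least 50 CPM and the same direction in 3 of 3 libraries, and genes of the lists, apart from a result that is not reported here. Doublets were scored with scrublet in scanpy 1.11.5. Its automatic threshold marked 0% of cells in some libraries and was not used, and removing the highest scores at the expected rate was an alternative. Gene positions are from GENCODE for GRCm38. Alternatives were DESeq2 1.42.0, fits without the block, without a count filter or without 1 infarct, other comparators and rules, thinned cells and, chosen after seeing the data, cells with Saa3, Arg1 and Marco low.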

Additional observations from a re-analysis of the deposited data

Results flagged for a closer look

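The contrast between rule cells and other C1q-positive cells ran in opposite directions in infarct and baseline for 6 genes. All 3 infarct libraries were higher in rule cells and the baseline library was lower, and the difference between infarct and baseline was not tested. Saa3 had a log2 fold change of 2.70 in the infarcts and a log2 ratio of -3.82 at baseline. Marco had 2.75 and -1.85, Fn1 2.01 and -1.59, Padi4 3.22 and -2.22, Prg4 1.19 and -2.98, and Naip1 2.35 and -2.22. The baseline ratios rest on few counts or cells. Of 2850 other C1q-positive baseline cells 9 were high in Saa3, Arg1 and Marco, and these 9 held 286 of 320 UMIs of Saa3, 38 of 65 of Marco, 1394 of 6287 of Fn1, 52 of 95 of Padi4, 519 of 885 of Prg4 and 7 of 19 of Naip1. Baseline rule cells held 39, 31, 3586, 35, 192 and 7 UMIs of these genes.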

How the results depend on the processing

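Rule cells against other C1q-positive cells gave 1191 genes, with 1962 without a filter on low counts, 700 in thinned cells, 177 without the replicate block and 344 to 1660 when 1 infarct was left out (344 without replicate 3). With Saa3, Arg1 and Marco low on both sides it gave 763, 412 without the replicate block, 788 by DESeq2 and 418 to 1444 with 1 infarct left out (749 without replicate 1). Of 71 genes named as called in that comparison, 47 did not pass without the replicate block, and the same-numbered sums come from 1 heart each. The count for 3 or 4 against 2 of the genes was 51, with 30 by DESeq2, 177 without a filter, 95 with doublets removed, 0 without the replicate block and 1 to 170 with 1 infarct left out. Restricted to low cells it was 56, 4 without the replicate block, 26 by DESeq2 and 45 to 140. Against baseline the count was 248, with 461 at a mean of at least 20 CPM and 133, 121 and 159 in cells with Saa3, Arg1 and Marco under 10, 3 and 30 (123, 168 and 141 in the first without infarct 1, 2 and 3).

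The mean infarct share of 2.78% was 1.14% in thinned cells, 0.758% with 3 or more genes, 1.27% in low cells and 1.08% under 3. The baseline share of 37.3% was 27.8% thinned, 21.5% with 3 or more genes, 27.4% with 2 UMIs per gene, 34.9% without Retnla, 35% at a C1q threshold of 60, 57.3% of C1q-positive cells, 35.7% with doublets removed and 39.0% at up to 10% mitochondrial UMIs. Signs changed for Fabp5 (0.306, and 0.191 in low cells) and Spp1 (0.238 and 0.0700) against comparators without a Gpnmb UMI, for Col3a1 with 3 or 4 against 2 genes (-3.40 without replicate 1 and 0.00546 without replicate 3), for Prg4 thinned (-0.0282), for Icam2 and Prg4 in low cells (-0.171 and -0.0890; without a Gpnmb UMI -0.219 and -0.102; without the replicate block -0.153 and -0.0523; -0.275, -0.243 and -0.0103 for Icam2 and -0.929 and -0.489 for Prg4 with 1 infarct left out; for Icam2 also -0.792 under 3, -0.212 with doublets removed and -0.151 by DESeq2), and for Slpi against baseline in low cells (-0.709, -0.314 under 3, and -2.91, -0.251 and -0.214 with 1 infarct left out). Causes of these changes were not tested.

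No paired analysis was possible because the baseline library is a pool of other hearts than the infarcts. The comparison of 3 or 4 against 2 genes was not run in thinned cells or with Saa3, Arg1 and Marco under 3, which left fewer than 20 cells in a library. Baseline is 1 library, and infarct replicate 2 had 133 rule cells, which limits the precision of their values.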
